A study of Mus musculus with 9 samples.

Results

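The SAG course without Dox of Experiment 2 is 3 single-cell RNA libraries of the mouse embryonic fibroblast line NIH3T3-CG, taken after 0, 19 and 30 h of SAG, with no Dox given in any of them. Its cells were chosen as the barcodes with at least 5000 UMIs (unique molecular identifiers, each counting 1 captured molecule) and at most 10% of UMIs in mitochondrially encoded genes. These were 2979 cells at 0 h, 6520 at 19 h and 2159 at 30 h, 11658 of the 18733 cells that pass the same limits in the 9 libraries of the series. Experiment 1 (0, 17 and 30 h of SAG) and a course of Experiment 2 with Dox make up the rest; the labels do not say what Dox controls in this line. There was 1 library per time, so no difference below has a replicate check, intervals cover counting error only, and time in SAG cannot be told apart from library, time in culture or harvest. Levels are summed UMIs scaled to counts per 1000000 UMIs (CPM), and a gene is called when its ratio between times is at least 2-fold either way.

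SAG is a small molecule that binds and activates Smoothened, the membrane protein through which Hedgehog ligands signal. Without a ligand the receptor Ptch1 holds Smoothened inactive at the primary cilium; once Smoothened is active, Sufu releases the transcription factors Gli2 and Gli3, and transcription of Gli1, Ptch1 and Hhip follows, of which Ptch1 and Hhip restrain the pathway in turn. NIH3T3 fibroblasts are a common model of this response because they carry the pathway's components and a primary cilium.

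The libraries differed in depth. Kept UMIs summed to 85654594 at 0 h, 105591390 at 19 h and 106128757 at 30 h, with medians of 28335, 8025 and 48188 per cell and 3659, 2075.5 and 5744 genes per cell. The 19 h library had 2 groups of barcodes: 15429 of its 24730 deposited barcodes held 2000 to 5000 UMIs and 5481 held 5000 to 10000, only 393 held 15000 to 20000, and 1029 held 20000 to 30000. Kept barcodes are called cells throughout; those under 10000 UMIs were 10.8% of them at 0 h, 60.0% at 19 h and 5.19% at 30 h, and whether each of these small barcodes at 19 h is a cell could not be settled from the counts. Values are therefore also given for cells with at least 20000 UMIs, of which there were 2354, 1873 and 1962, with closer medians of 31315, 34321 and 49884 UMIs. Across kept cells, the mitochondrial share of UMIs was 7.41%, 6.64% and 5.14%, and the ribosomal protein share was 43.6%, 39.1% and 37.7%. Few kept barcodes recurred between libraries: 9 were in both the 19 h and 0 h libraries, 1 in both the 30 h and 0 h libraries and 3 in both the 30 h and 19 h libraries.

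**Figure D1:**
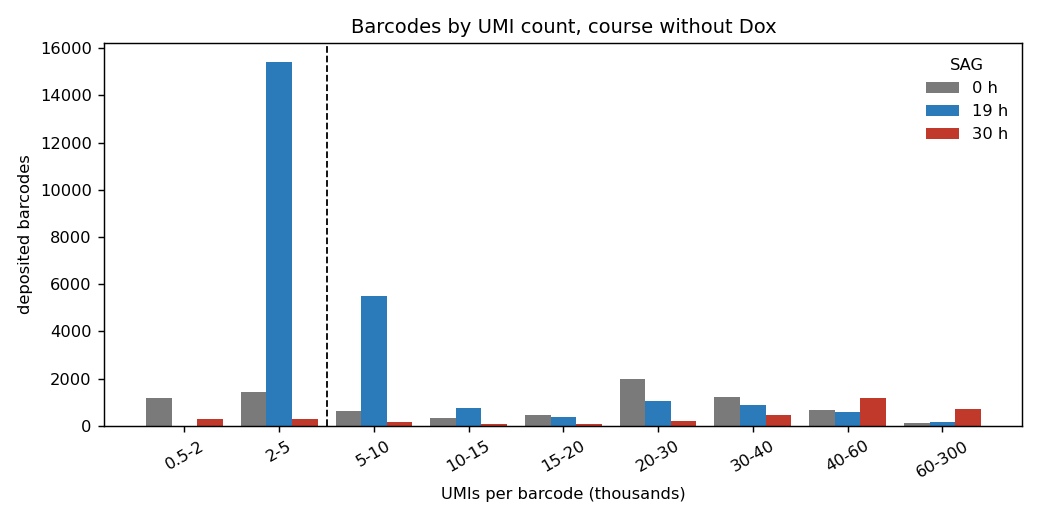
Deposited barcodes (y axis) by group of UMIs per barcode (x axis) at 0, 19 and 30 h of SAG; the dashed line is the minimum of 5000 UMIs. The 19 h library has most of its barcodes under 10000 UMIs and a smaller group from 20000 upward.

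The fibroblast label held. With each cell thinned at random to 5000 UMIs, 95.7% of cells at 0 h, 98.7% at 19 h and 98.1% at 30 h had UMIs of at least 3 of 9 fibroblast markers. Of 7 smooth muscle markers, genes that cultured fibroblasts also express, at least 3 were found in 1.38%, 2.01% and 2.50% of cells. Of the other 9 marker classes, 1 cell, of the macrophage class at 19 h, had 3 or more, and the macrophage markers Adgre1 and C1qa were at 0 in all 3 libraries.

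Gli1, the transcription factor whose gene is the standard readout of Hedgehog activity, was close to absent at 0 h and present at both later times (GRCm38, chromosome 10, 127329882 to 127341974, minus strand). Its level was 0.035 CPM at 0 h (3 UMIs; 95% counting interval 0.00722 to 0.102), 6.60 CPM at 19 h (697 UMIs; 6.12 to 7.11) and 16.5 CPM at 30 h (1750 UMIs; 15.7 to 17.3). The ratio of 19 h to 0 h was 188, with a wide interval of 64.2 to 916 because it rests on 3 UMIs at 0 h. The ratio of 30 h to 19 h was 2.50 (2.29 to 2.73). Cells with at least 20000 UMIs had much the same levels, 0.0382, 6.33 and 16.4 CPM for Gli1 at 0, 19 and 30 h.

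Ptch1, the receptor that restrains Smoothened, followed the same order (chromosome 13, 63508328 to 63573598, minus strand). It was at 2.45 CPM at 0 h (210 UMIs), 24.2 CPM at 19 h (2553 UMIs) and 54.8 CPM at 30 h (5814 UMIs). The ratio was 9.86 for 19 h against 0 h (8.56 to 11.4) and 2.27 for 30 h against 19 h (2.16 to 2.37). Hhip, a secreted binding protein for Hedgehog ligands, had 0 UMIs in the kept cells of all 3 libraries. GFP_g1, a feature counted beside the mouse genes whose sequence the labels do not describe, was at 2.24 CPM at 0 h, 38.2 CPM at 19 h and 35.7 CPM at 30 h. Unlike Gli1 and Ptch1, GFP_g1 was not higher at 30 h than at 19 h: the ratio was 17.0 (14.7 to 19.8) for 19 h against 0 h and 0.934 (0.893 to 0.976) for 30 h against 19 h. That last direction depended on the cells used, with a log2 ratio of -0.10 over all kept cells and 0.12 over GFP_g1 counts of cells with at least 20000 UMIs.

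The upstream components changed less and over both steps. Gli2, the main activator among the Gli proteins, was at 2.85, 4.77 and 9.71 CPM at 0, 19 and 30 h, and was past 2-fold in the later step alone (ratio 2.03, 1.83 to 2.27). In cells of 10000 to 20000 UMIs the log2 ratio of Gli2 in that step was 0.42, within 2-fold. Gli3, which acts mainly as a repressor, stayed between 7.52 and 9.75 CPM. Smo, which encodes Smoothened, was at 23.4, 31.5 and 46.5 CPM, and Sufu at 4.48, 7.77 and 13.8 CPM.

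**Figure D2:**
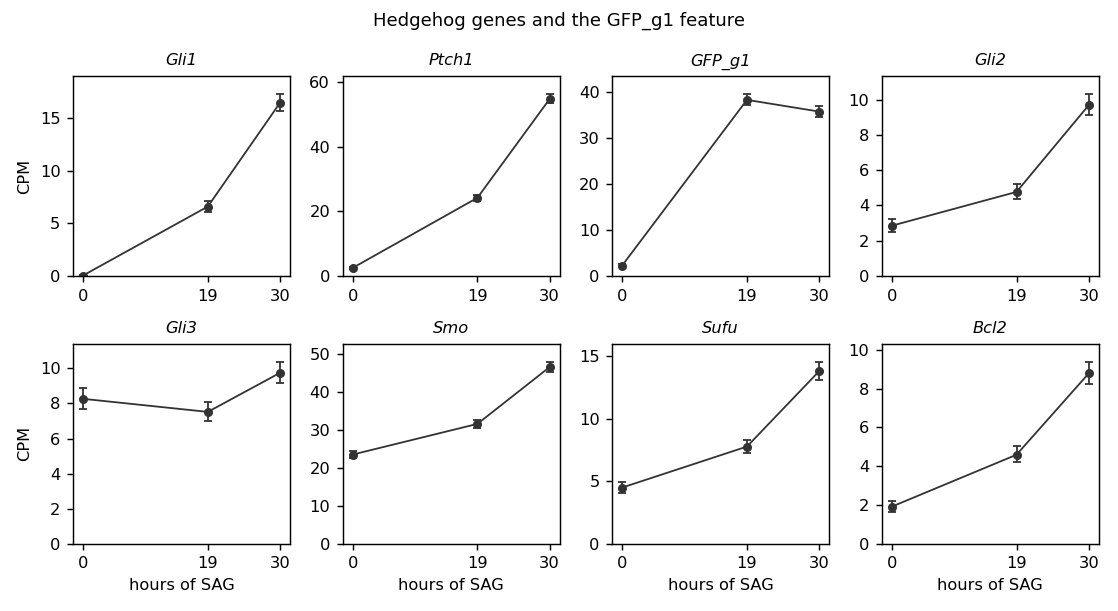
Level in CPM (y axes, each from 0) by hours of SAG (x axes) for 7 Hedgehog genes and the GFP_g1 feature; points are libraries and bars are 95% counting intervals. Gli1 and Ptch1 are higher at each step, GFP_g1 is level from 19 to 30 h, and Gli3 stays between 7.52 and 9.75 CPM.

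These ratios sit on a shift of the typical gene. Over the 8159 genes with a mean of at least 5 CPM across the 3 libraries, the median log2 ratio was 0.29 for 19 h against 0 h and 0.30 for 30 h against 19 h, while the ribosomal protein and mitochondrial shares were lower at the later time. In cells with at least 20000 UMIs the medians were 0.28 and 0.33, and in the same steps 0.45 and 0.009 with Dox and -0.11 and 0.003 in Experiment 1. Relative to that median gene, Gli1 was still higher by 7.26 and 1.02 (log2) in the 2 steps, Ptch1 by 3.01 and 0.88, and Gli2 by 0.45 and 0.72. Gli3 was 0.43 below the median gene in the first step and 0.08 above it in the second.

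For 19 h against 0 h, 96 genes (1.18% of those measured) were at least 2-fold higher and 45 (0.552%) at least 2-fold lower. Relative to the median gene the split turned round, to 27 higher (0.331%) and 104 lower (1.27%). With TMM factors 33 were higher and 85 lower, so the balance of higher and lower genes depends on the scaling. For 30 h against 19 h, 219 genes (2.68%) were higher and 21 (0.257%) lower. Relative to the median gene these were 11 (0.135%) and 39 (0.478%), and with TMM factors 18 and 36.

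Of the Hedgehog target list, 12 of 32 genes reached 5 CPM as a mean of the 3 libraries. Gli1, Ptch1, Bcl2 and, among the components, Gli2 were under 5 CPM at 0 h and passed through later libraries. Calls of such genes as higher, and the list medians, are thus partly set by the limit. The same holds for Lum, Tgm2 and Scara5 below. Gli1, Ptch1 and Bcl2 were past 2-fold higher in the first step and Gli1 and Ptch1 in the second, and none were lower. Over all genes 1.18% were higher in the first step and 2.68% in the second. The list medians were 0.58 and 0.73 against 0.29 and 0.30 over all genes. Bcl2, an inhibitor of apoptosis, was at 1.90, 4.58 and 8.78 CPM. Among 25 measured Hedgehog components, Ptch1 was called in the first step and 3 genes, among them Ptch1 and Gli2, in the second. These calls stand beside the same 1.18% and 2.68% of all genes. The component medians were 0.36 and 0.46, which is 0.07 and 0.16 above those of all genes.

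At a fixed depth the share of cells with a Gli1 UMI differed in the same order as the level. With every kept cell thinned to 5000 UMIs, 0 of 2979 cells at 0 h (which allows a share of up to 0.101%) had a Gli1 UMI, against 3.39% at 19 h (2.96 to 3.86) and 8.66% at 30 h (7.51 to 9.93). Without thinning the shares were 0.101%, 9.31% and 47.2%, a spread that also carries the difference in depth. In cells with at least 20000 UMIs, thinned to 20000, Gli1 was seen in 0.085%, 12.5% and 27.1% of cells, and 0%, 1.12% and 7.65% of cells had 2 or more Gli1 UMIs. Most cells at 30 h thus gave no Gli1 UMI at this depth, which does not show that they lacked the transcript.

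Ptch1 and GFP_g1 were seen in more cells than Gli1. In cells with at least 20000 UMIs thinned to 20000, Ptch1 was seen in 4.21%, 34.0% and 52.6% of cells at 0, 19 and 30 h, GFP_g1 in 4.63%, 40.1% and 45.7%, and Gli2 in 5.52%, 9.77% and 18.3%. The 0 h library has cells of its own, and the share that free RNA would give was not measured, so UMIs from free RNA and from the cells' own expression cannot be told apart in it. UMIs of these genes varied between cells by more than counting: the excess variance (variance less mean, over the squared mean; 0 for counting error alone) was 0.667 at 19 h and 0.831 at 30 h for Gli1, 1.16 and 1.18 for Ptch1, and 1.65 and 1.04 for GFP_g1.

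Within a library, cells with a Gli1 UMI more often had UMIs of the other pathway readouts and also of Col4a1, a collagen gene that is no standard readout. In cells thinned to 20000 UMIs at 30 h, Ptch1 was seen in 71.9% (67.9 to 75.7) of the 531 cells with a Gli1 UMI and in 45.4% (42.8 to 48.0) of the 1431 without. At 19 h Ptch1 was seen in 51.9% (45.3 to 58.5) of 235 cells with a Gli1 UMI and 31.4% (29.2 to 33.8) of 1638 without. GFP_g1 was seen in 60.8% of cells with a Gli1 UMI and 40.0% of those without at 30 h, and in 60.9% and 37.2% at 19 h. For Gli2 the shares were 27.7% and 14.8% at 30 h, with intervals apart, and 13.6% and 9.22% at 19 h, with intervals that overlap. Col4a1 was seen in 95.9% (93.8 to 97.4) of cells with a Gli1 UMI and 88.1% (86.3 to 89.7) of those without at 30 h, and in 79.1% (73.4 to 84.2) and 66.8% (64.5 to 69.1) at 19 h. The order was thus not particular to the pathway readouts. These are cells of 1 culture library each, and the shares describe those libraries.

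The level of Gli1 also differed with the size of the cell's library. At 30 h Gli1 was at 33.6 CPM in cells of 20000 to 30000 UMIs, 27.3 CPM at 30000 to 40000, 18.7 CPM at 40000 to 60000 and 9.38 CPM from 60000 upward, and Ptch1 was at 96.8, 91.9, 66.4 and 28.7 CPM in the same groups. At 19 h Gli1 was at 9.18, 6.71, 4.53 and 4.67 CPM there. Over the same groups the summed level of the 40 mitosis genes was 206, 221, 328 and 1142 CPM at 30 h, and 296, 331, 744 and 1565 CPM at 19 h. From 20000 UMIs upward, the largest cells at 30 h thus had the least Gli1 per UMI and the most mitosis transcripts. Whether the mitosis genes have a part in the Gli1 values was not tested. In each of the 7 UMI groups, Gli1 was higher at 30 h than at 19 h and higher at 19 h than at 0 h; the 30 h library had only 112 cells of 5000 to 10000 UMIs and 36 of 10000 to 15000, and Ptch1 there (25.0 and 24.3 CPM) was near its level at 19 h (24.3 and 21.6 CPM).

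**Figure D3:**
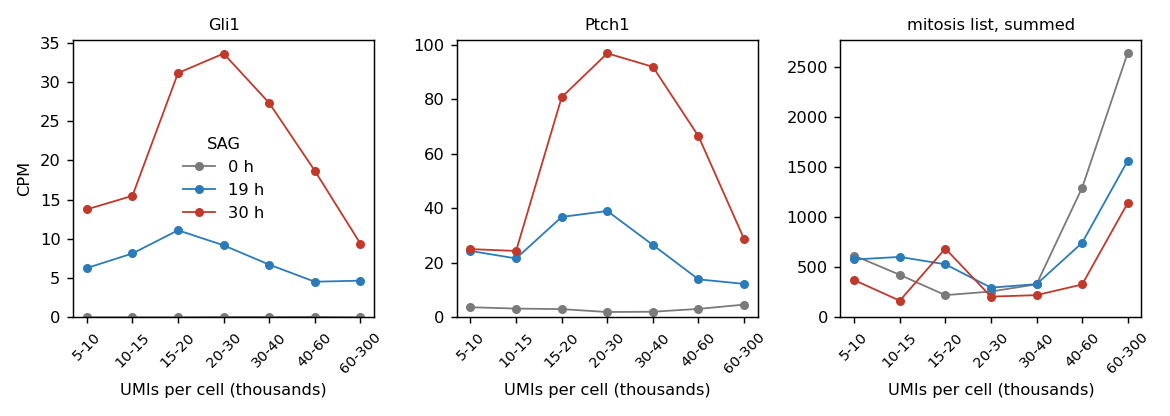
Summed level in CPM (y axes) of Gli1, of Ptch1 and of the 40 mitosis genes by group of UMIs per cell (x axes) at 0, 19 and 30 h of SAG. At 30 h Gli1 is highest at 33.6 CPM in cells of 20000 to 30000 UMIs and 9.38 CPM in the largest cells, where the mitosis genes are at 1142 CPM.

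Basement membrane collagens were among the genes with the largest differences in both steps. Col4a1 and Col4a2 encode the type IV collagen chains that form the network of basement membranes; the genes lie head to head on chromosome 8 (Col4a1 at 11198423 to 11312826 on the minus strand, Col4a2 at 11312805 to 11449287 on the plus strand). Col4a1 was at 18.6 CPM at 0 h, 76.6 CPM at 19 h and 206 CPM at 30 h, with ratios of 4.11 (3.89 to 4.34) and 2.69 (2.63 to 2.76). Col4a2 was at 10.2, 35.1 and 86.4 CPM, with ratios of 3.45 (3.21 to 3.72) and 2.46 (2.37 to 2.56). Both genes were thus higher at each step by similar factors. Col4a1 was seen in 29.3%, 68.4% and 90.2% of cells thinned to 20000 UMIs. The rest of the basement membrane list moved less: of 12 measured genes, Col4a1, Col4a2 and Sparc, a collagen-binding glycoprotein, were past 2-fold at 19 h against 0 h, and Col4a1, Col4a2 and Lamb2, the laminin beta 2 chain, at 30 h against 19 h. Over all genes 1.18% were past 2-fold higher in the first step and 2.68% in the second. The list medians were 0.29 and 0.71, the first equal to that of all genes (0.29) and the second above it (0.30).

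Some other extracellular matrix genes were past 2-fold higher in each step, beside 1.18% of all genes in the first and 2.68% in the second. Of 22 measured genes of fibrillar and pericellular matrix, Col16a1, Dcn and Lum were past 2-fold higher at 19 h against 0 h, and Col6a2, Col16a1 and Dcn at 30 h against 19 h, with medians of 0.40 and 0.71 and none lower in either step. Dcn encodes decorin, a proteoglycan that binds collagen fibrils, and was at 22.9, 59.4 and 124 CPM. Lum, which encodes the related lumican, was at 3.41, 8.96 and 10.9 CPM. The first-step calls of this list depended on the cells used. For Col16a1, Dcn and Lum the log2 ratios were 0.98, 1.44 and 1.36 in cells with at least 20000 UMIs. They were 0.90, 0.40 and 0.67 in cells of 10000 to 20000 UMIs, and 0.86, 0.87 and 0.72 without the mitochondrial limit. In Experiment 1 they were 0.50, -0.40 and -0.71, and with Dox 2.16, 0.25 and -0.22. UMIs of Dcn and Lum were concentrated in few cells, with counts given below beside Hist1h2ap. Of 22 matrix enzymes and inhibitors, Tgm2 and Timp3 were past 2-fold higher in the first step and 7 genes in the second (Loxl3, Tgm2, Plod3, Mmp2, Mmp11, Mmp14 and Timp3), again with none lower. Tgm2, a transglutaminase that crosslinks matrix proteins, was at 3.56, 16.2 and 35.1 CPM. Mmp14, a membrane-bound metalloproteinase, was at 18.6, 26.5 and 68.3 CPM. Relative to the median gene, fewer members of these lists passed 2-fold: 2 basement membrane genes, 2 fibrillar matrix genes and 2 matrix enzymes were higher in the first step, where 1 fibrillar matrix gene was lower, and 1 of each list was higher in the second. Over all genes, 0.331% were higher and 1.27% lower on this scale in the first step, and 0.135% and 0.478% in the second. Plod3, a collagen lysyl hydroxylase, was at 17.0, 24.1 and 51.8 CPM. Timp3, a tissue inhibitor of metalloproteinases, was at 23.8, 61.7 and 129 CPM. Some calls of the second step also depended on the cells used. In cells of 10000 to 20000 UMIs its log2 ratios were 0.75 for Dcn, 0.16 for Tgm2 and 0.67 for Plod3. They were 1.04 for Col16a1, 1.40 for Col6a2 and 1.43 for Mmp14.

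The remaining genes with the largest differences at 19 h against 0 h had varied roles. Lactb, a mitochondrial serine protease-like protein, was at 37.0 CPM at 19 h against 8.78 CPM at 0 h (log2 2.08), and Cltb, a clathrin light chain, at 82.8 against 24.3 CPM (1.77). Gas7, a protein first found in growth-arrested NIH3T3 cells, was at 79.7 against 24.6 CPM (1.69). Metrnl, a secreted factor, was at 60.5 against 19.95 CPM (1.60), and Hlf, a PAR bZIP transcription factor, at 27.2 against 9.19 CPM (1.56). Arhgef10, a guanine nucleotide exchange factor, was at 23.9 against 8.73 CPM (1.45). All of these were past 2-fold in cells with at least 20000 UMIs as well, at log2 ratios of 1.40 to 1.96.

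A few surface and growth factor genes of fibroblasts were past 2-fold higher at 19 h against 0 h, beside 1.18% of all genes. Scara5, a ferritin receptor, was at 1.41, 5.64 and 14.6 CPM at 0, 19 and 30 h, and Thy1, a surface marker of fibroblasts, at 16.2, 37.2 and 75.3 CPM. Ly6a (the Sca-1 antigen) was at 44.8, 112 and 137 CPM. Of 24 measured surface genes 4 were past 2-fold higher in the first step and 3 in the second, and of 21 growth factor genes Igfbp4 and Igfbp6 (insulin-like growth factor binding proteins) in the first and 0 in the second. The medians of the surface list were 0.42 and 0.27 and those of the growth factor list 0.29 and 0.45, against 0.29 and 0.30 over all genes. In the second step 2.68% of all genes were past 2-fold higher. Relative to the median gene, 2 surface genes were past 2-fold higher in the first step and 1 in the second, and 0 growth factor genes in either. Over all genes 0.331% and 0.135% were higher on this scale. The summed level of the surface list was 12945.5, 11567 and 11688 CPM at 0, 19 and 30 h, so its sum was not higher at 19 h. Of its 24 measured genes, 16 were above the median gene in the first step and 11 in the second. In cells of 10000 to 20000 UMIs the second-step log2 ratios were 0.38 for Scara5, 0.82 for Thy1 and 1.46 for Cd44. Igfbp6 was at 1059 CPM at 19 h against 467 CPM at 0 h. Lgr4, a receptor for R-spondins that amplifies Wnt signals, was at 16.9 against 5.51 CPM, and Ftl1, the ferritin light chain, at 5041 against 2010 CPM. Of the immediate early list, Klf4 (61.8 against 28.1 CPM) and Dusp1 (37.9 against 18.5 CPM) were past 2-fold and 15 other measured genes were not; the list median was 0.20, and 0 were past 2-fold relative to the median gene.

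At 30 h against 19 h the largest differences outside the matrix were in signalling and scaffold genes. Fam168a was at 42.3 CPM at 30 h against 16.2 CPM at 19 h (log2 1.38), and Bcl9l, a coactivator of beta-catenin, at 38.8 against 16.3 CPM (1.25). Sh3pxd2a, a podosome scaffold that takes part in matrix degradation, was at 79.6 against 34.4 CPM (1.21), and Mfhas1 at 45.2 against 20.4 CPM (1.15). Of 17 measured YAP target genes, Amotl1 (92.0 against 38.8 CPM), Axl (176 against 83.9 CPM) and Ptpn14 (17.4 against 8.56 CPM) were past 2-fold higher, beside 2.68% of all genes. In cells of 10000 to 20000 UMIs the log2 ratios of Amotl1, Axl and Ptpn14 were 0.86, 0.87 and 0.25, within 2-fold. The list median was 0.50, against 0.30 over all genes, and 0 of the 17 were past 2-fold relative to the median gene. Genes of other lists past 2-fold included Nfkb2 (58.0 against 28.1 CPM), Ltbp3 (146 against 68.9 CPM), Atf5 (284 against 134 CPM) and Bag3 (26.7 against 12.1 CPM).

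In the course without Dox the ratios of the later step differed with transcript length. Over the genes at 5 CPM, 8158 of which had a longest annotated transcript, 4 groups of equal size were formed by length. The median log2 ratio of 30 h to 19 h was -0.03 in the shortest group and 0.28, 0.38 and 0.52 in the next groups up to the longest. In the longest group 105 genes were past 2-fold higher, against 9 in the shortest. For 19 h against 0 h the groups were level, at 0.28, 0.32, 0.29 and 0.29. The longest transcript of the 219 genes higher at 30 h had a median of 4715 bases, against 3392.5 over all genes. From the shortest group to the longest, the medians were -0.02, 0.30, 0.43 and 0.57 in cells with at least 20000 UMIs. For the step to 30 h they were 0.10, 0.05, -0.02 and -0.09 in Experiment 1, and 0.006, 0.035, 0.009 and -0.015 with Dox. For the first step they were -0.18, -0.20, -0.08 and 0.05 in Experiment 1, and 0.15, 0.44, 0.48 and 0.62 with Dox. A rise with length was thus also seen with Dox, in its first step. The part of length in the ratios of single genes was not tested.

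Histone genes were lower at each step. These genes are transcribed mainly in S phase, and most of their transcripts lack the poly(A) tail that the 3' kit primes on; they are near-identical copies, so the split of reads between them is uncertain. The summed level of the list was 1139 CPM at 0 h, 586 CPM at 19 h and 300 CPM at 30 h. Of 16 measured histone genes 5 were at least 2-fold lower and 0 higher at 19 h against 0 h (median -0.60). At 30 h against 19 h 12 were lower and 0 higher (median -1.78). Over all genes 0.552% and 0.257% were lower in these steps, with medians of 0.29 and 0.30. Relative to the median gene, 7 and 14 were lower, beside 1.27% and 0.478% of all genes. Hist1h4h was at 49.0, 16.6 and 3.57 CPM, Hist1h1b at 73.9, 51.3 and 11.4 CPM, and Hist1h1e at 212, 133 and 37.2 CPM. Hist1h2ap did not follow this order, at 404, 123 and 134 CPM, and 59, 63 and 26 cells held 50% of its UMIs at the 3 times. Of the matrix genes above, 50% of UMIs lay in 103, 239 and 134 cells for Dcn and 39, 104 and 56 for Lum.

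In shares of cells the histone list followed the same order. In cells thinned to 20000 UMIs, 85.9%, 63.3% and 39.0% had UMIs of at least 3 histone genes, while at 5000 UMIs the shares were 33.5%, 32.3% and 5.33%, the first pair close together. Few other cell cycle genes passed 2-fold. Of 25 measured mitosis genes 0 were past 2-fold in either step, with medians of -0.06 and 0.10 and summed levels of 633, 596 and 643 CPM. Of 29 DNA replication genes, Rpa3, a subunit of replication protein A, was past 2-fold lower in the first step (15.2 CPM at 19 h against 30.5 CPM at 0 h). In the second step 0 were past 2-fold, and the list medians were 0.15 and 0.19. Over all genes the medians were 0.29 and 0.30, and 1.18% were higher and 0.552% lower in the first step, and 2.68% and 0.257% in the second. Above the median gene were 1 and 5 of the 25 mitosis genes in the 2 steps, and 4 and 10 of the 29 DNA replication genes. The share of cells with at least 3 mitosis genes gave no usable order: it was 14.0%, 24.9% and 11.1% at 5000 UMIs and 45.4%, 50.5% and 61.7% at 20000 UMIs. The excess variance of the mitosis genes differed with UMIs per cell. At 19 h it was 1.61 at 5000 to 10000 UMIs, 10.7 at 20000 to 30000 and 2.59 from 60000 upward. In the same groups it was 2.24, 8.15 and 1.56 at 0 h, and 6.52, 0.383 and 6.09 at 30 h.

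**Figure D4:**
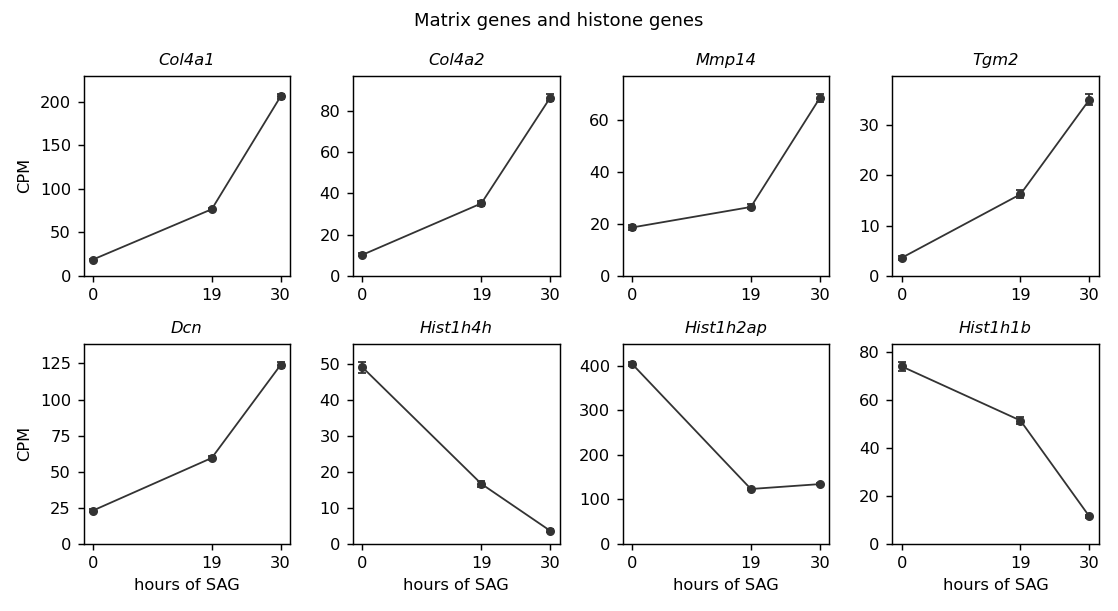
Level in CPM (y axes, each from 0) by hours of SAG (x axes) for 5 matrix genes and 3 histone genes; points are libraries and bars are 95% counting intervals. The matrix genes are higher at each step, and Hist1h4h and Hist1h1b lower, while Hist1h2ap is at 123 and 134 CPM at 19 and 30 h.

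Several of the other genes with much lower levels are mitochondrial, noncoding or ribosomal protein RNAs. At 19 h against 0 h, Bc1, a brain cytoplasmic RNA transcribed by RNA polymerase III, was at 41.6 against 253 CPM (log2 -2.61). Among mitochondrially encoded genes, mt-Atp8 was at 117 against 530 CPM (-2.17) and mt-Nd4l at 215 against 678 CPM (-1.66). The other 11 of the 13 were within 2-fold (list median -0.31). Over all genes 0.552% were past 2-fold lower in this step, with a median of 0.29. The small nucleolar RNA hosts Snhg6 (58.1 against 142 CPM) and Snhg9 (7.55 against 36.1 CPM) were lower, as were Spata7 (102 against 415 CPM), Pbld1 (11.1 against 55.3 CPM) and 1810009A15Rik (12.5 against 43.0 CPM). The ribosomal protein copies Rpl9-ps6 (81.7 against 232 CPM) and Rps27rt (53.7 against 138 CPM) share near-identical sequence with other genes and are uncertain. Of 79 ribosomal protein genes, 3 were past 2-fold lower, among them Rpl39 and Rpl38, with a list median of -0.07. In the second step 0 were past 2-fold (-0.06), beside 0.257% of all genes lower and a median of 0.30 over all genes. The longest transcript of the 45 lower genes had a median of 1125 bases.

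At 30 h against 19 h the lower genes outside the histones included mitochondrial and ribosomal RNA-like transcripts. mt-Nd6, the gene on the light strand of the mitochondrial genome, was at 9.24 against 76.3 CPM (log2 -3.05), Lars2 at 68.4 against 359 CPM (-2.39), AY036118 at 142 against 575 CPM (-2.01), Gm42418 at 3682 against 12622 CPM (-1.78) and Slc24a5, a cation exchanger, at 5.91 against 19.2 CPM (-1.70). AY036118 and Gm42418 are known to collect reads of ribosomal RNA. All 5 ratios were nearer to 0 in cells with at least 20000 UMIs, at a log2 ratio of -2.14 for mt-Nd6, -1.55 for Lars2, -1.14 for AY036118, -1.23 for Slc24a5 and -0.91 for Gm42418, the last within 2-fold. The 30 h library also held more kept cells with under 1% mitochondrial UMIs, 19.7% against 1.41% at 19 h. In cells of 1% to 10% mitochondrial UMIs, mt-Nd6 was at 11.0 CPM at 30 h against 77.9 CPM at 19 h, and Lars2 at 69.7 against 363 CPM. AY036118 was at 142 against 583 CPM in them, and Gm42418 at 3703 against 12760 CPM. The cause of the lower levels was not tested.

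Ccl2 was lower at each step, while the inflammatory list it belongs to was not. Ccl2, a monocyte chemokine, was at 58.2 CPM at 0 h, 29.1 CPM at 19 h and 15.9 CPM at 30 h, and was the only one of 11 measured NF-kB and chemokine genes past 2-fold lower in the first step (ratio interval 0.478 to 0.523; log2 -0.90, within 2-fold, in cells with at least 20000 UMIs). In cells thinned to 5000 UMIs, 18.9%, 10.4% and 5.74% had a Ccl2 UMI. At 30 h against 19 h, Nfkb2 was the one gene of the 11 past 2-fold higher and 0 were lower. Over all genes 0.552% were lower in the first step, and 2.68% higher and 0.257% lower in the second. Relative to the median gene, 1 of the 11 was lower in the first step and 2 in the second, beside 1.27% and 0.478% of all genes. The list medians were -0.07 and 0.40, against 0.29 and 0.30 over all genes, and its summed level was 349, 330 and 365 CPM. Saa3, an acute phase protein, was at 0.303 CPM at 19 h against 21.8 CPM at 0 h, but 3 cells held 1812 of its 1865 UMIs at 0 h and 1 of them 1354. Without those 3 cells Saa3 was at 0.619 CPM at 0 h. Ankrd1, a target of YAP signalling, was at 211, 87.8 and 118 CPM, higher at 30 h than at 19 h.

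**Figure D5:**
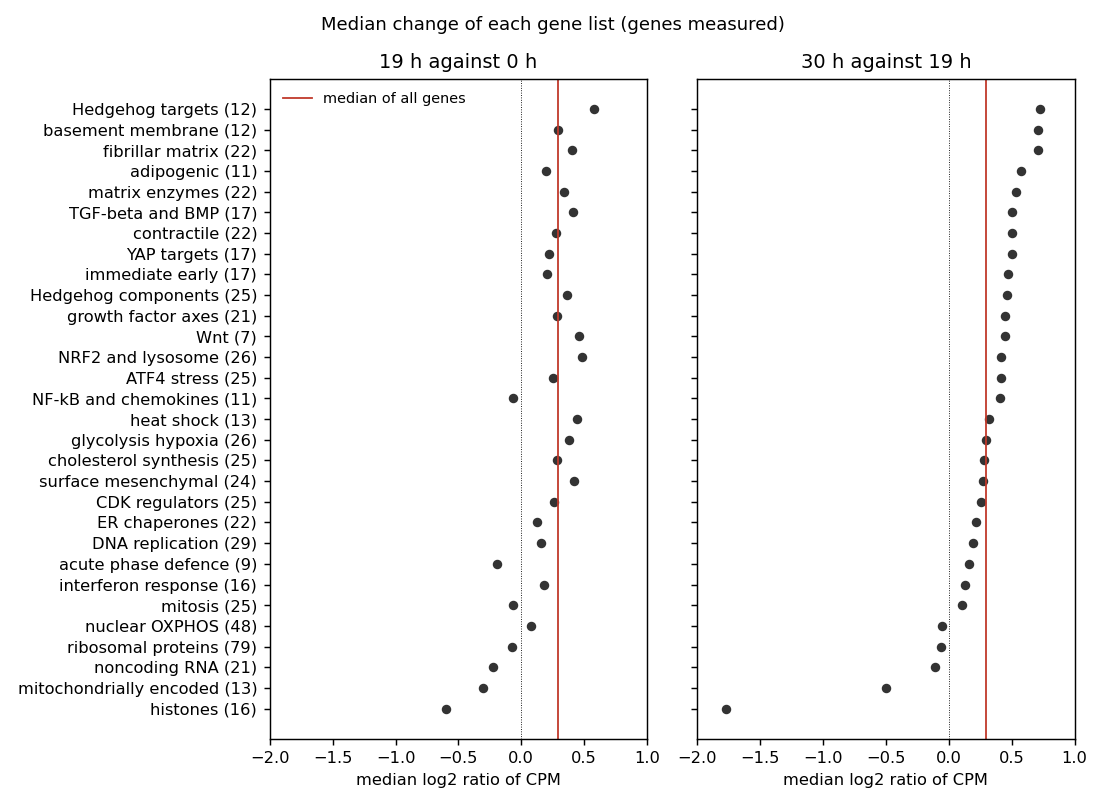
Median log2 ratio of CPM (x axes) of the measured genes of 30 gene lists (rows, number of genes at 5 CPM in parentheses) for 19 h against 0 h and 30 h against 19 h; the red line is the median of all 8159 genes, 0.29 and 0.30. The Hedgehog targets, basement membrane and fibrillar matrix are at 0.73, 0.71 and 0.71 for 30 h against 19 h, and histones at -1.78.

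Gli1, Ptch1 and Col4a1 were higher in the first step in all 3 courses and differed between courses in the later step. For Gli1 the log2 ratios of the middle time against 0 h and of 30 h against the middle time were 7.56 and 1.32 in the course without Dox, 7.60 and 0.37 with Dox, and 5.19 and -0.99 in Experiment 1. For Ptch1 they were 3.30 and 1.18 without Dox, 4.77 and 0.40 with Dox, and 1.96 and -1.11 in Experiment 1. For Col4a1 they were 2.04 and 1.43, 2.89 and 0.71, and 1.51 and -1.07 in the same order of courses. With Dox, Gli1 reached 23.3 CPM at 19 h and 30.2 CPM at 30 h, above 6.60 and 16.5 CPM without it. Among Lactb, Cltb, Gas7, Metrnl, Hlf and Arhgef10, Lactb alone was past 2-fold higher in the first step of Experiment 1. The log2 ratios were 1.18, 0.53, 0.45, 0.32, 0.04 and 0.28 there, and 2.52, 1.96, 2.03, 0.33, 1.14 and 1.83 with Dox. Fam168a, Mmp14 and Col6a2, among the largest rises of the later step, were at 0.02, 0.18 and -0.03 in Experiment 1. With Dox they were at 0.17, 0.11 and 0.31. Each course has 1 library per time, so none of these differences was tested.

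The consensus binding site of Gli proteins, GACCACCCA, was looked for on both strands in the promoter windows of RefSeq (GRCm38.p6; 250 bases before to 50 after a gene's start). Of 47 named genes that were at least 2-fold higher in either step, 31 had a window, and 1 of them, Cltb, held the motif, against 83 of all 32851 windows (0.253%). The stretch at Cltb is shown because it is the only such match; it is 48 to 56 bases before the start at chr13:54611411-54611439, on the minus strand as the gene, and the capitals mark the motif.
Cltb: agggcggggcGACCACCCAgccccgcggg
The match describes these letters only. Gli1 is among the genes without a window, and sequence outside the windows was not searched.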

How the data were processed

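The deposited values are raw UMI counts per gene and barcode of single-cell 3' v3.1 libraries, per the labels' protocols; reads were processed with Cell Ranger against mm10, per the submitters' processing notes (version 6.0.1 for Experiment 2 and 3.1.0 for Experiment 1, per the file headers). The filter behind the barcode lists and the use of strand are not given in the sources used here. Counts of kept cells were summed per library over 32286 features and scaled to CPM. Ratios carry exact 95% counting intervals (Clopper-Pearson on the split of the 2 counts) and shares exact binomial intervals; a count of 0 allows up to 3 counts. No test across samples was possible. Thinning drew UMIs without replacement with a fixed seed. Scrublet (scanpy 1.11.5) marked 3, 1 and 8 cells at 0, 19 and 30 h, under 0.5% of cells, so it is taken not to have worked, and doublets were not removed. TMM (edgeR 4.0.16) and median-of-ratios factors (DESeq2 1.42.0) were scaling alternatives. The computation was checked on simulated counts. Gene positions are those of GENCODE vM21.

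The cells, the 31 gene lists and the rules were chosen with earlier results of these data known. In each step the genes named are GFP_g1, Gli1 to Gli3, Ptch1, Smo, Sufu and Hhip, the 10 largest rises and 10 largest falls at a mean of at least 20 CPM that were also past 2-fold in cells of 10000 to 20000 UMIs, and up to 3 called genes per list; some further list members are named after their values were seen. A few of the genes chosen this way are not reported here. Whether the libraries came from separate cultures is not stated. Python 3.11.15 and R 4.3.3 were used.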

Additional observations from a re-analysis of the deposited data

Results flagged for a closer look

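A set of 8 genes, all named above except Hist1h3b, a histone H3 gene, differed past 2-fold in opposite directions between the course without Dox and Experiment 1; these differences rest on 1 library per time and were not tested. For 19 h against 0 h, set beside 17 h against 0 h in Experiment 1, the log2 ratios were -2.32 without Dox and 1.43 in Experiment 1 for Pbld1, -2.17 and 1.08 for mt-Atp8, -1.78 and 1.06 for 1810009A15Rik, -1.56 and 1.56 for Hist1h4h, -1.59 and 1.59 for Hist1h3b, and 1.03 and -1.54 for Dusp1. For the step to 30 h they were 1.18 and -1.11 for Ptch1, and 1.43 and -1.07 for Col4a1. Hist1h4h was at 49.0 CPM at 0 h in this course and at 0.961 CPM at 0 h in Experiment 1.

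Barcodes left out of every comparison also held UMIs of the pathway genes, at higher levels at 19 and 30 h than at 0 h. In barcodes under 5000 UMIs with at most 10% mitochondrial UMIs, Gli1 was at 7.38 CPM at 19 h and 19.5 CPM at 30 h, against 0 UMIs at 0 h (limit 0.759 CPM). Ptch1 was at 27.2 and 32.0 CPM there, against 2.78 CPM at 0 h; the intervals at 19 h (25.4 to 29.0) and 30 h (20.3 to 48.1) overlap, so the step from 19 to 30 h of the kept cells, at 54.8 CPM at 30 h, was not detectable there. GFP_g1 was at 60.8 and 54.3 CPM, against 3.54 CPM. In barcodes over the mitochondrial limit, Gli1 was at 9.58 CPM at 19 h and 20.03 CPM at 30 h, against 0.0497 CPM at 0 h. Ptch1 was at 35.5 and 81.4 CPM in those barcodes, against 2.77 CPM, and GFP_g1 at 42.1 and 40.0 CPM, against 1.79 CPM. In the 19 h library, GFP_g1 was higher in the barcodes under 5000 UMIs (60.8 CPM) than in the kept cells (38.2 CPM); what these small barcodes are was not tested.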

How the results depend on the processing

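No paired analysis was possible because each time has 1 library. Counts are given as higher and lower at 19 h against 0 h, then higher and lower at 30 h against 19 h; they were 96, 45, 219 and 21. They became 33, 85, 18 and 36 with TMM factors, 33, 85, 20 and 35 with median-of-ratios factors, and 59, 86, 137 and 34 with totals that leave out mitochondrial and ribosomal protein genes. With a mean of at least 1 CPM they were 156, 99, 335 and 76, with at least 20 CPM 47, 26, 93 and 12, and at 1.5-fold 1184, 145, 2030 and 73. In cells of 10000 to 20000 UMIs 310 were higher in the first step, and 382 higher and 270 lower in the second. In cells of 5000 to 10000 UMIs 257 were higher and 68 lower in the first step, and 575 lower in the second. Fewer cells enter these UMI groups, and the median log2 ratio of all genes in the second step was 0.042 and -0.10 in them, against 0.30 over all kept cells; the cause was not tested. Without cells above 3 times the median UMI count 154 were higher in the first step and 39 lower in the second. With at least 20000 UMIs per cell, chosen after seeing the data, 73 of the 96 and 174 of the 219 higher genes were called again. The share of cells with a Gli1 UMI moved with depth, from 3.39% to 8.05% (thinned to 10000) and 9.31% (not thinned) at 19 h, and from 8.66% to 16.1% and 47.2% at 30 h. Of 88 named differences past 2-fold, 88 kept their direction under 13 of 14 settings of cells and scaling; in cells of 5000 to 10000 UMIs 85 did, and Dcn (-0.059), Scara5 (-0.66) and Cd44 (-0.29) reversed in the second step. With TMM factors 60 of the 88 were past 2-fold. The 88 were chosen for passing 2-fold in these same counts, and the ranked ones also in cells of 10000 to 20000 UMIs. A change of scaling shifts all genes of a step by the same amount. The kept directions were thus largely set by the choice and are no independent check. The 0 h library's 3 Gli1 UMIs limit the size of its ratio.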
